A study of Rattus norvegicus with 144 samples.

Results

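Of 38803 transcripts that matched the Ensembl annotation exactly and were listed for all 3 brain regions of control rats, 90 were enriched in the hippocampus (HIP), which is 0.232% of them. They were chosen by the mean FPKM of the 12 saline-treated control rats (fragments mapped to a transcript, divided by its length and by all mapped fragments of the library), which had to be at least 5 in the HIP and at least 4 times the mean in both the prefrontal cortex (PFC) and the striatum (STR). The same rule gave 132 transcripts for the PFC and 164 for the STR. The 90 transcripts came from 90 genes. Because saline-treated control values made the choice, the levels of that group are given as a description only.

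Adult male rats of 2 strains were used: F344 rats, and HIV-1Tg rats, which carry an HIV-1 genome lacking gag and pol on the F344 background under the viral promoter. Each strain received saline or nicotine (0.25 mg/ml at 1 ml/kg, with 2 subcutaneous injections per day for 17 days), which gave the 4 groups F344_Sal, F344_Nic, HIV_Sal, and HIV_Nic. RNA of 12 rats per group was sequenced in each of the 3 regions, for 144 libraries. Tissue was punched from the dorsal HIP, so a library is a mixture of cells, and a change in the number of cells of a type cannot be told apart from a change in RNA per cell. The rats had earlier taken part in a behavioral study.

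The hippocampus supports the formation of memory for places and events. Its principal neurons are the granule cells of the dentate gyrus and the pyramidal cells of the CA fields, which form a chain of excitatory connections, and its transcription factors, signaling proteins, and receptors set these cells apart from cortical and striatal neurons. The striatum consists mainly of inhibitory projection neurons, whereas the PFC, like the HIP, contains many excitatory pyramidal neurons. Nicotine acts on acetylcholine-gated ion channels that all 3 regions contain.

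The deposited tables list transcripts by Ensembl identifiers and do not pair them with gene names, and none of the identifiers had an entry in the reference table. Members are therefore named by transcript identifier, and the granule cell, pyramidal cell, interneuron, and choroid plexus markers that would check the tissue by name were not analysed here.

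The regional labels were instead checked with the 13193 transcripts that were not members and had a mean of at least 1 FPKM over all libraries. Across these transcripts each library was correlated (Pearson's r on the log2 scale, as a description, since transcripts are not independent) with the median of the other libraries of each region. Of 144 libraries, 140 correlated best with the region on their label and 4 did not. The library labelled HIP F344_Sal replicate 10 had a correlation of 0.742 with the STR and 0.695 with the HIP, and the library labelled STR F344_Sal replicate 10 had 0.740 with the HIP and 0.675 with the STR. Likewise, the library labelled HIP HIV_Sal replicate 6 had 0.749 with the STR and 0.700 with the HIP, and the library labelled STR HIV_Sal replicate 6 had 0.760 with the HIP and 0.697 with the STR.

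Sets of transcripts that were enriched in a region in F344_Nic rats, which none of these 4 libraries entered, gave the same picture. The HIP set of 51 widely detected transcripts had medians of 0.918 and 0.996 FPKM in the 2 libraries labelled HIP, against 11.6 to 20.5 FPKM in the other 46 HIP libraries. In the 2 libraries labelled STR its medians were 18.3 and 17.8 FPKM, against 0.186 to 2.78 FPKM in the other 46. The STR set of 102 transcripts showed the mirror image, with 11.4 and 10.99 FPKM in the 2 libraries labelled HIP and 0.448 and 0.339 FPKM in those labelled STR. Replicate numbers name libraries within a region and group, and the labels do not say which libraries of different regions came from the same rat. No library was moved to another group. Counts and differences below that rest on them are given with all libraries, without these 4, or both, as stated beside each. The HIP and STR libraries of F344_Sal replicate 10 were among the 36 that entered the rule, and without them the rule would give 121 members, which include 86 of the 90 (95.6%, or 71.1% of the 121).

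The members differed sharply in length and in how many rats carried them. Transcripts shorter than 120 bases numbered 42, or 46.7% of the members, against 7.5% of all transcripts and 2.2% of those with a HIP mean of at least 5 FPKM. These were 61 to 114 bases long. Of the 42, 32 were above 0.01 FPKM in only 1 of the 12 HIP libraries of F344_Sal rats, 9 in 2 to 5 libraries, and 1 in at least 6. A single library gave at least 50% of the summed FPKM in 38 of them, and 37 had a mean of 0 in both the PFC and the STR. For example, ENSRNOT00000063343, 65 bases long, had 1221, 1176, and 928 FPKM in 3 HIP libraries and was listed at 0 in the other 9, for a mean of 277 FPKM. It was listed at 0 in all 36 HIP libraries of the other 3 groups, and at 1138 and 1307 FPKM in 1 PFC library each of HIV_Nic and HIV_Sal rats. ENSRNOT00000054358, 81 bases long and first by mean level at 278 FPKM, had a value in only 1 of the 12 libraries. High mean levels among the short members thus stood for a few libraries each.

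**Figure D1:**
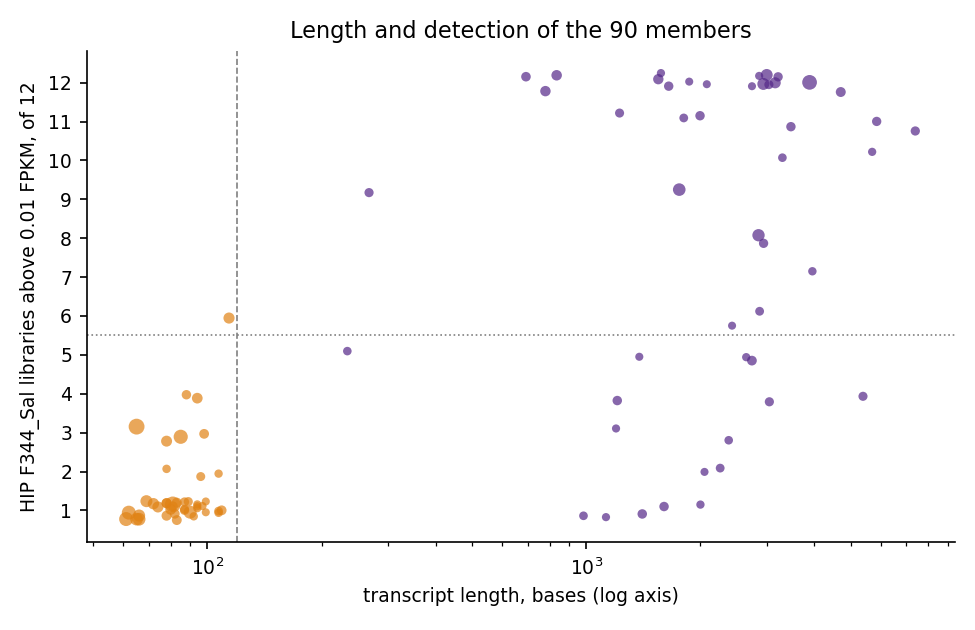
Transcript length in bases (log axis) against the number of the 12 HIP libraries of F344_Sal rats with more than 0.01 FPKM, for the 90 members, with point area rising with the mean HIP FPKM and a small vertical scatter added. The 42 members left of the dashed line at 120 bases lie almost all at 1 to 4 libraries, whereas 32 of the 48 longer members lie above the dotted line, at 6 or more.

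In the groups that the rule did not use, few short members met the cut-offs. In F344_Nic, HIV_Sal, and HIV_Nic rats, 5, 8, and 6 of the 42 did so with all libraries (7 in HIV_Sal rats without the 4), next to 0.303%, 0.267%, and 0.341% of all transcripts listed there. None of the 42 met them in all 3 groups, where 0.0571% of all transcripts did, and 26 met them in none. In 16 the HIP mean was 0 in all 3 of these groups. Missing values were also more frequent, at 17.2% of the cells of short members and 5.35% of those of longer members, against 2.68% of all cells.

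Of the 48 members of 120 bases or more, 32 were above 0.01 FPKM in at least 6 of the 12 HIP libraries of F344_Sal rats, and they are called the widely detected members below. Of the other 16, 5 were detected in 1 library and 11 in 2 to 5, and these met the cut-offs in all 3 other groups in 2 cases and in none in 10. The widely detected members were 267 to 7385 bases long, and 17 were the only annotated transcript of their gene in the tables. Their HIP means in F344_Sal rats ran from 5.29 to 196 FPKM, with a median of 16.1 FPKM, and the ratio of the HIP mean to the higher of the PFC and STR means ran from 4.03 to 15.5, with a median of 5.89. The cut-offs fell within a continuous range of values: the 3 members nearest to the ratio limit had 4.03, 4.07, and 4.08, and the 3 transcripts just below it had 3.93, 3.93, and 3.99. At the level limit the nearest members had 5.29, 5.38, and 5.4 FPKM and the nearest transcripts outside had 4.90, 4.94, and 4.98 FPKM.

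Most of the widely detected members, but not all, met the cut-offs in the groups that the rule did not use. Of the 32, 25 did so in F344_Nic rats, 20 in HIV_Sal rats, and 24 in HIV_Nic rats with all libraries, next to the shares of all transcripts given above, and 26 did in HIV_Sal rats without the 4 libraries (0.331% of all transcripts). With all libraries 18 met them in all 3 groups. Without the 4 libraries, 21 did so (0.0831% of all transcripts), 5 in 2 groups, 2 in 1 group, and 4 in none. The HIP mean was above both other means for 31 of the 32 in F344_Nic, 31 in HIV_Sal, and all 32 in HIV_Nic rats. The share of all transcripts with this order was not computed, so these counts are a description. The exception in HIV_Sal rats was ENSRNOT00000061303, with a mean of 40.7 FPKM in the HIP and 60.6 FPKM in the PFC. Taking the median over the 32 members in each library, HIP levels were 13.3 to 18.7 FPKM in F344_Nic and 11.6 to 18.6 FPKM in HIV_Nic rats. PFC levels were 1.22 to 2.39 FPKM and 0.613 to 2.97 FPKM in these groups, and STR levels were 0.218 to 1.51 FPKM and 0.276 to 1.14 FPKM. By this median, HIP libraries did not overlap with those of the other regions in either group. In HIV_Sal rats the same held apart from the libraries of replicate 6, with the HIP at 11.2 to 18.5 FPKM. F344_Sal values chose the members, so the HIP range of 13.4 to 18.8 FPKM there, without replicate 10, is a description only. The libraries labelled HIP F344_Sal replicate 10 and HIP HIV_Sal replicate 6 had 1.05 and 0.804 FPKM. The corresponding STR libraries had 14.6 and 14.8 FPKM, where the remaining 11 of each group had at most 0.917 and 1.63 FPKM.

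**Figure D2:**
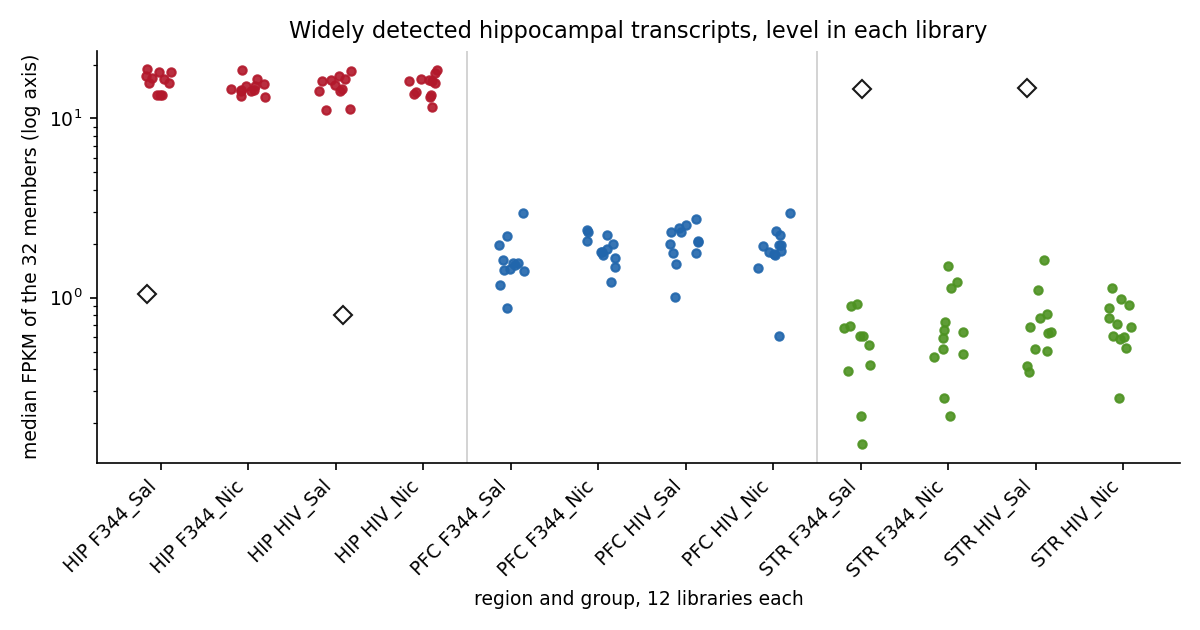
Median FPKM (log axis) of the 32 widely detected members in each of the 144 libraries, by region and group, with 12 libraries per group. Open diamonds mark the 4 libraries that lie closer to another region than to their label: those labelled HIP sit at 1.05 and 0.804 FPKM and those labelled STR at 14.6 and 14.8 FPKM, while the other HIP libraries sit between 11.2 and 18.8 FPKM.

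Whether each member differed between regions was tested with limma on log2(FPKM + 0.1) in a fit of all 144 libraries, for which a transcript had to exceed 0.01 FPKM in at least 6 of 12 rats in the HIP or in the region compared. A member was counted as higher in the HIP when the Benjamini-Hochberg adjusted p was under 0.05 against both the PFC and the STR. In F344_Nic rats 32 of the 90 members entered and 25 were higher, against 2.87% of all 16624 transcripts tested. In HIV_Sal rats 21 of 31 were higher, against 2.14% of all tested, and in HIV_Nic rats 22 of 30, against 3.49%. Without the 4 libraries the numbers were 25 of 32 (3.04% of all tested), 23 of 30 (2.88%), and 22 of 30 (3.74%). All members that entered did so through the HIP, and 6, 2, and 4 of them in F344_Nic, HIV_Sal, and HIV_Nic rats through the HIP alone. Of these, 4, 1, and 1 were called higher. The filter favours members that are high in the HIP, so these counts describe the members that could be tested and not all 90. Of the members that entered through another region as well, 21 of 26, 20 of 29, and 21 of 26 were higher. Without the filter on low values nearly all members could be tested, and 22 of 88, 19 of 88, and 21 of 87 were higher in F344_Nic, HIV_Sal, and HIV_Nic rats, against 1.11%, 0.789%, and 1.29% of all transcripts. With the filter, in all 3 groups, 19 of 29 members were higher in the HIP, against 1.41% of all transcripts tested in the 3 groups, and 21 of 29 without the 4 libraries, against 1.66%.

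The size of a difference could be given only where the transcript was also found in the other region. In F344_Nic rats, 21 of the 25 members were above 0.01 FPKM in at least 6 PFC libraries, and their log2 differences between HIP and PFC had a median of 3.19 and ran from 2.04 to 5.16. Against the STR, 19 members had as many libraries with a value above the limit, with a median of 4.13 and a range of 2.34 to 6.79. In HIV_Nic rats the medians were 3.11 for 21 members and 4.37 for 19 members. In HIV_Sal rats they were lower, at 2.77 and 3.44 for 19 members each, with ranges of 1.84 to 4.6 and 1.61 to 5.86, and at 3.06 and 3.9 for 21 members each without the 4 libraries. For the others the size of the difference was set mainly by the added 0.1, which also bears on members with low values in the other region. An example is ENSRNOT00000045519, which was listed at 0 in all 12 PFC libraries of F344_Nic rats and above 0.01 FPKM in 1 of the 12 STR libraries. The PFC mean exceeded the STR mean in 21 of the 32 widely detected members in F344_Nic and in 22 in HIV_Nic rats. As the share over all transcripts was not computed, this is not read as a trait of the members.

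For some members the separation was complete in single libraries, among those above 0.01 FPKM in at least 6 libraries of at least 1 region. The lowest HIP library lay above the highest PFC and the highest STR library for 20 of 34 members in F344_Nic rats (0.681% of all transcripts tested). In HIV_Nic rats this held for 15 of 32 members (0.539% of all tested). In HIV_Sal rats 0 of 33 members were separated in this way with all libraries (0.0164% of all tested). Without the 4 libraries 18 of 31 were (0.728% of all tested). Without the 4 libraries, 12 of the 31 members that entered in all 3 groups were separated in each of them, against 0.235% of all tested.

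ENSRNOT00000033940, of the gene ENSRNOG00000021745, was the clearest of the abundant members. In the HIP of F344_Nic rats its lowest, median, and highest values were 57.2, 78.1, and 88.8 FPKM, in the PFC 4.74, 7.98, and 10.3 FPKM, and in the STR 0.317, 0.565, and 0.947 FPKM. In HIV_Nic rats they were 42.5, 75.8, and 91.5 FPKM in the HIP, 3.45, 8.28, and 11.8 FPKM in the PFC, and 0.244, 0.587, and 0.819 FPKM in the STR. The 3 regions formed 3 separate bands, with the PFC between the HIP and the STR. In F344_Nic rats the log2 difference was 3.32 ± 0.49 (SE, n = 12 per group; limma adjusted p = 9.4e-09) between HIP and PFC and 6.79 ± 0.49 (adjusted p = 1.9e-24) between HIP and STR. Without the 4 libraries, which entered the shared estimate of spread, both differences stayed and their SE was 0.17. In the saline groups, the library labelled HIP F344_Sal replicate 10 had 0.523 FPKM and that labelled STR F344_Sal replicate 10 had 99.2 FPKM, and the libraries of HIV_Sal replicate 6 had 0.740 and 87.9 FPKM, in the same order of regions.

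ENSRNOT00000009367, of the gene ENSRNOG00000006937, had the highest level of the widely detected members and was found in every HIP library. In F344_Nic rats its lowest, median, and highest values were 189, 273, and 302 FPKM in the HIP, 17.5, 26.5, and 36.6 FPKM in the PFC, and 20.4, 34.5, and 79.1 FPKM in the STR. This transcript was thus well expressed in all 3 regions, and its mean was 6.47 times as high in the HIP as in the STR. In this group the log2 difference was 3.28 ± 0.55 between HIP and PFC (limma adjusted p = 5.4e-07) and 2.82 ± 0.55 between HIP and STR (adjusted p = 2.9e-05). In the STR, 1 library of F344_Sal and 2 of HIV_Sal rats were listed at 0 FPKM.

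ENSRNOT00000003441, at the level limit with 5.29 FPKM, stood far above both other regions outside the rule's group. In F344_Nic rats it had 1.85, 4.74, and 8.46 FPKM as the lowest, median, and highest HIP values, and its highest values were 0.273 FPKM in the PFC and 0.164 FPKM in the STR. Its HIP mean was 64.0 times the higher of the other 2 means in F344_Nic and 37.3 times in HIV_Nic rats. In F344_Sal and HIV_Sal rats the same ratio was 7.65 and 7.55, with STR means of 0.691 and 0.572 FPKM that fell to 0.138 and 0.137 FPKM without the libraries of replicate 10 and replicate 6.

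ENSRNOT00000010439 moved in the same way. Its ratio was 18.7 in F344_Nic and 29.6 in HIV_Nic rats, but 4.60 in F344_Sal and 6.20 in HIV_Sal rats, where the STR libraries of replicate 10 and replicate 6 held 144 and 86.8 FPKM. No other STR library of these groups exceeded 6.03 FPKM. In HIV_Nic rats its HIP values ran from 29.5 to 189 FPKM, a wider spread than that of ENSRNOT00000033940.

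ENSRNOT00000020100 varied little between libraries, with 13.2 to 21.6 FPKM in the HIP of F344_Nic and 12.7 to 21.2 FPKM in that of HIV_Nic rats. In the STR of these groups it reached at most 0.385 and 0.690 FPKM, and it was listed at 0 in 3 and 5 of the 12 libraries. The log2 difference between HIP and STR was 6.07 ± 0.60 in F344_Nic and 6.22 ± 0.60 in HIV_Nic rats (SE, n = 12 per group; limma adjusted p = 1.1e-15 and 2.9e-16). With STR values this low, the size of both differences depends on the added 0.1.

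**Figure D3:**
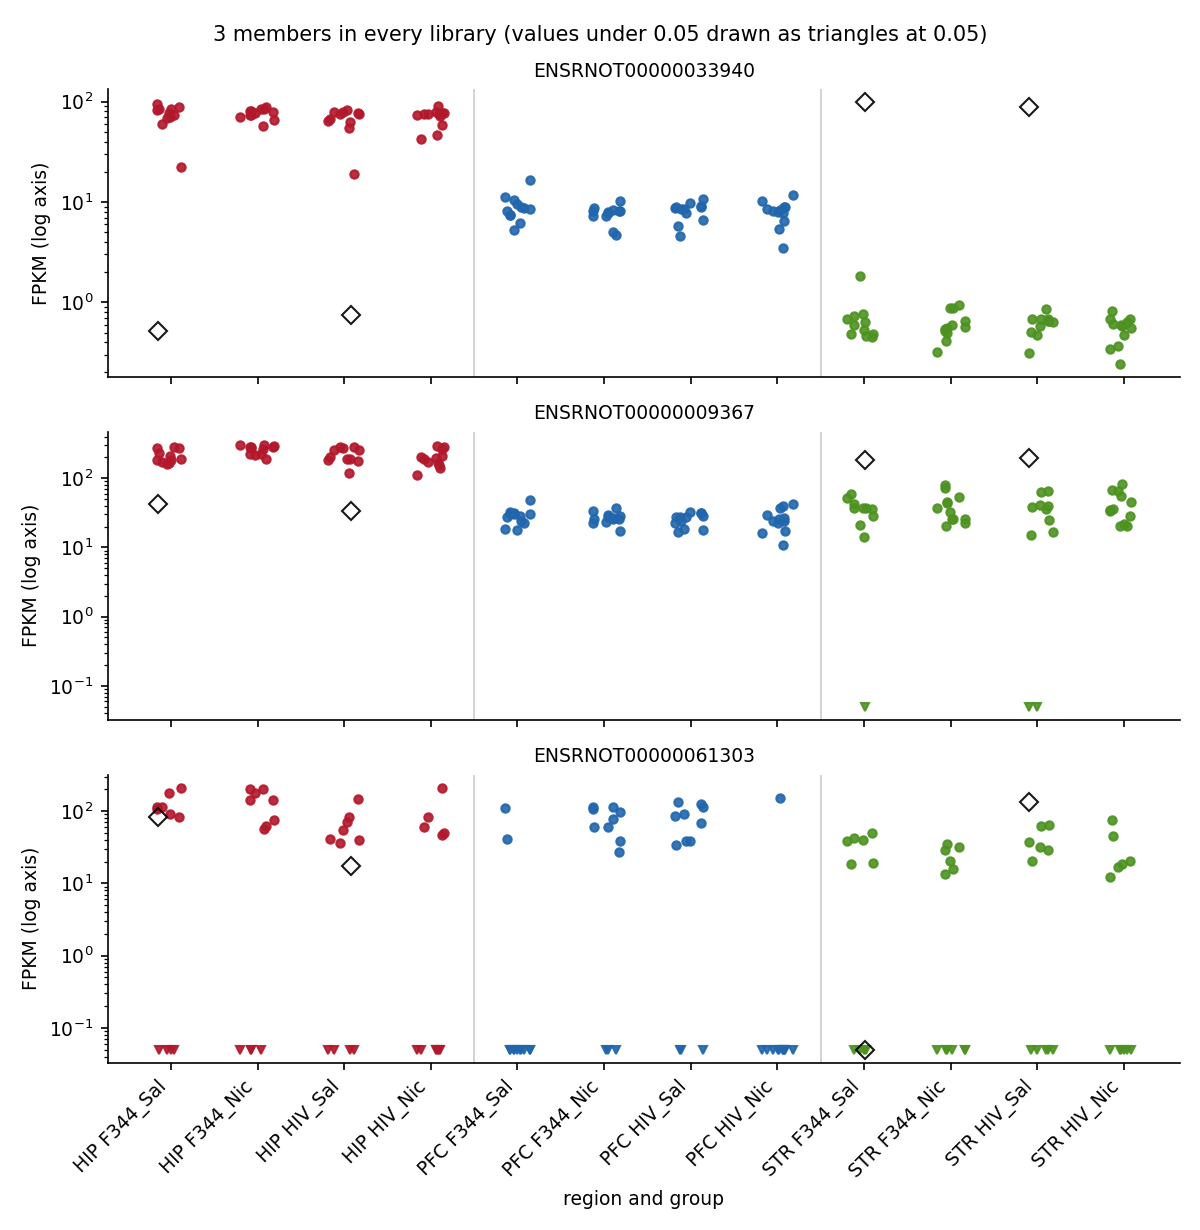
FPKM (log axis) of 3 members in each library by region and group, with open diamonds for the 4 libraries that lie closer to another region than to their label and triangles at 0.05 for values under 0.05 FPKM. ENSRNOT00000033940 forms 3 separate bands, ENSRNOT00000009367 is high in the HIP and moderate elsewhere, and ENSRNOT00000061303 lies either at 0 or above 10 FPKM in all 3 regions.

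Other widely detected members were either listed at 0 or high. Among the 46 HIP libraries without the 2 that lay closer to the STR, 16 of the 32 members were above 0.01 FPKM in every library with a value, 7 were at or under it in 1 to 4 libraries, and 9 in 5 or more. ENSRNOT00000061303, 1 of 7 transcripts of its gene ENSRNOG00000008810, was at 0 in 19 of the 46 libraries, and the other 27 held 36.6 to 210 FPKM, with a median of 83.0 FPKM. It was above the limit in 8, 8, 8, and 5 of 12 HIP libraries in F344_Sal, F344_Nic, HIV_Sal, and HIV_Nic rats. In the PFC it was above the limit in 2, 9, 9, and 1 libraries in the same order. The ratio of 4.71 that made it a member was 1.53 in F344_Nic rats, 0.672 in HIV_Sal rats, and 2.39 in HIV_Nic rats. The order of its regional means thus differed from group to group, and so did the number of libraries listed at 0. Its log2 difference between HIP and PFC was -0.28 ± 1.78 in F344_Nic rats (SE, limma adjusted p = 0.94). In HIV_Sal rats this difference was -1.115 ± 1.78 (adjusted p = 0.77). Whether its regional order differed between groups was not tested.

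A similar pattern was seen for ENSRNOT00000007103, 1 of 4 transcripts of ENSRNOG00000005258. It was above 0.01 FPKM in 6 HIP libraries of F344_Sal rats, 0 of F344_Nic, 2 of HIV_Sal, and 7 of HIV_Nic rats. Where present it had 8.46 to 29.7 FPKM. ENSRNOT00000024978, the only transcript of ENSRNOG00000018399, was at 0 in 7 of the same 46 HIP libraries, had no value in 2, and was at 38.4 to 233 FPKM in the others. Libraries at 0 were not compared between genes with 1 transcript and genes with several. An exact 0 in these tables can be a failed estimate, and no counts were available to tell it from absence.

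FPKM were also summed over all transcripts of a gene in F344_Sal rats, whose values chose the members, so the counts are a description. The gene sum met the same cut-offs for 27 of the 32 widely detected members. Of these 32, 17 were the only transcript of their gene and met them by the choice. For the 15 members whose genes had several transcripts the gene sum did so in 10.

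**Figure D4:**
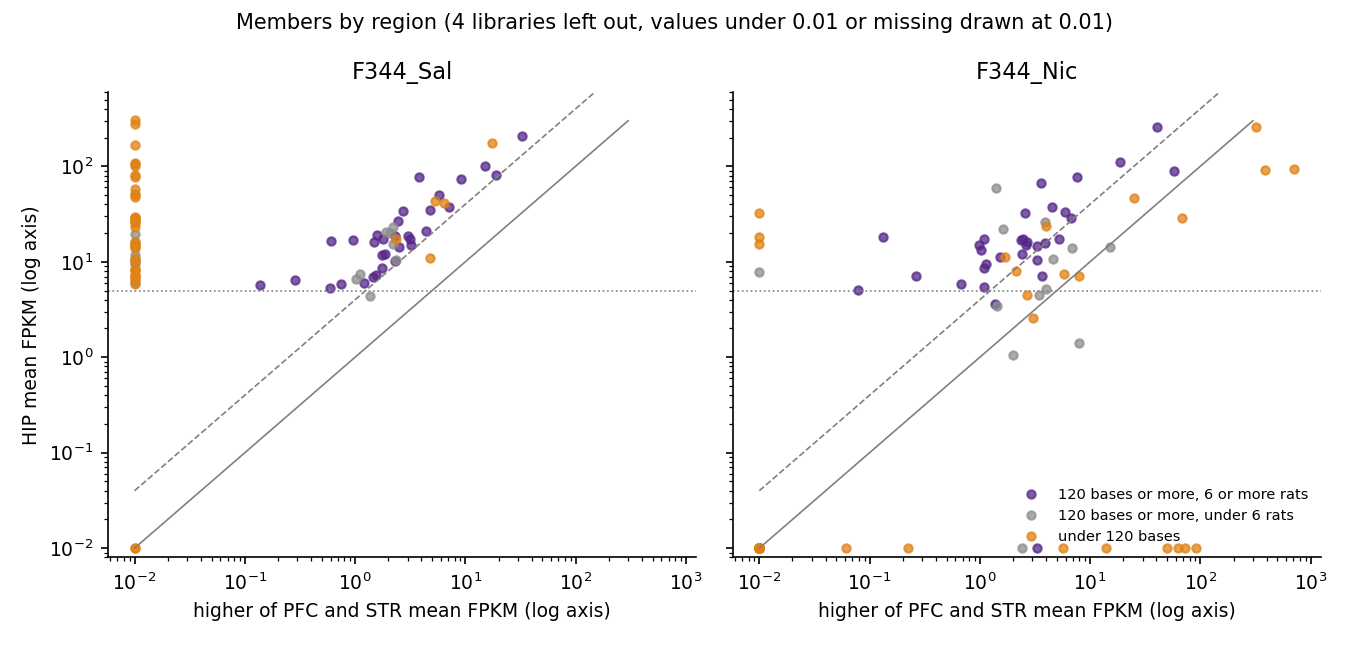
Mean FPKM in the HIP against the higher of the PFC and STR means (log axes) for the 90 members in F344_Sal rats, which chose them, and in F344_Nic rats, without the 4 libraries, where means under 0.01 FPKM or missing are drawn at 0.01. The dashed line marks 4 times, the solid line equality, and the dotted line 5 FPKM. In F344_Nic rats 25 of the 32 widely detected members (purple) still lie in the upper left sector, and so do 5 of the 42 members under 120 bases (orange).

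Strain and drug were compared within the HIP with limma in a fit of its 48 libraries, for transcripts that exceeded 0.01 FPKM in no fewer than 6 of 12 rats of each group. Calls needed a fold change over 1.2 and p under 0.05 before adjustment, and were made again by the Benjamini-Hochberg adjusted p. Only 29 or 30 of the 90 members entered each comparison. The comparisons of HIV_Nic with HIV_Sal rats and of HIV_Nic with F344_Nic rats compared no values that chose the members, although the F344_Sal libraries entered the estimate of spread that all groups share. In these, 0 members passed after adjustment, with the smallest adjusted p at 0.52 with all libraries and at 0.43 without the 4. Of all transcripts tested, 0% and 0.0267% passed, and 0% and 0.0334% without the 4 libraries.

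By the unadjusted threshold, 1 of 29 members was called for nicotine in HIV-1Tg rats (HIV_Nic against HIV_Sal). Over all transcripts tested 4.55% were called, so no effect on the members is read from this count. ENSRNOT00000045519 was higher in HIV_Nic rats by 1.71 ± 0.80 on the log2 scale (SE, n = 12 per group; limma unadjusted p = 0.039, adjusted p = 0.83). Its HIP values were 9.18, 15.1, and 24.4 FPKM (lowest, median, highest) in HIV_Nic and 0, 14.6, and 22.5 FPKM in HIV_Sal rats, and the groups overlapped widely. In a fit of only the 24 libraries compared, 0 members were called (4.08% of all tested). Without the 2 HIP libraries that lay closer to the STR its difference was 1.2 ± 0.61 (unadjusted p = 0.056). Then 3 other members were called (4.55% of all tested), 2 higher and 1 lower, and none was shared with the first call. The median log2 difference of the members was 0.44 with all libraries and 0.13 without the 4, against 0.04 over all transcripts tested in both cases.

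The difference between HIV_Nic and F344_Nic rats rested on none of the rule's libraries and none of the 4, apart from the estimate of spread that all groups share. Of 29 members, 2 were called, against 5.04% of all tested. ENSRNOT00000064141, 1 of 2 transcripts of ENSRNOG00000030016, was lower in HIV_Nic rats by 3.35 on the log2 scale (SE 1.07, n = 12 per group; limma unadjusted p = 0.0031, adjusted p = 0.52). It had 6.51, 12.6, and 18.6 FPKM in F344_Nic rats and 0, 5.39, and 11.1 FPKM in HIV_Nic rats, of which 7 were above 0.01 FPKM. ENSRNOT00000000336, the only transcript of ENSRNOG00000000306, was higher by 1.55 ± 0.72 (unadjusted p = 0.037, adjusted p = 0.69). In F344_Nic rats it had 0, 14.0, and 32.9 FPKM and in HIV_Nic rats 10.4, 19.3, and 34.9 FPKM, with 2 F344_Nic libraries at or under 0.01 FPKM. Both calls thus went with libraries listed at 0 in 1 of the groups. When the 4 libraries were left out of the shared fit, the estimates of spread changed and ENSRNOT00000009367 was called as well, lower in HIV_Nic rats by 0.43 on the log2 scale (SE 0.14, unadjusted p = 0.0028, adjusted p = 0.43), for 3 members against 5.4% of all tested.

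The comparisons with F344_Sal rats used the HIP values that chose the members, so a difference from that group is partly fixed by the choice, and nothing is read from their counts. For F344_Nic against F344_Sal rats, 4 of 30 members were past the unadjusted threshold (5.47% of all tested), and 3 without the 4 libraries (5.13%). For HIV_Sal against F344_Sal rats there were 0 of 29 with limma (4.37% of all tested), with 0 by the unadjusted p alone, and 1 without the 4 libraries (4.71%). As a description, ENSRNOT00000009367 had 43.1, 185, and 280 FPKM in F344_Sal rats (lowest, median, highest), the lowest being the library of replicate 10, and 189, 273, and 302 FPKM in F344_Nic rats. Both groups overlapped.

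**Figure D5:**
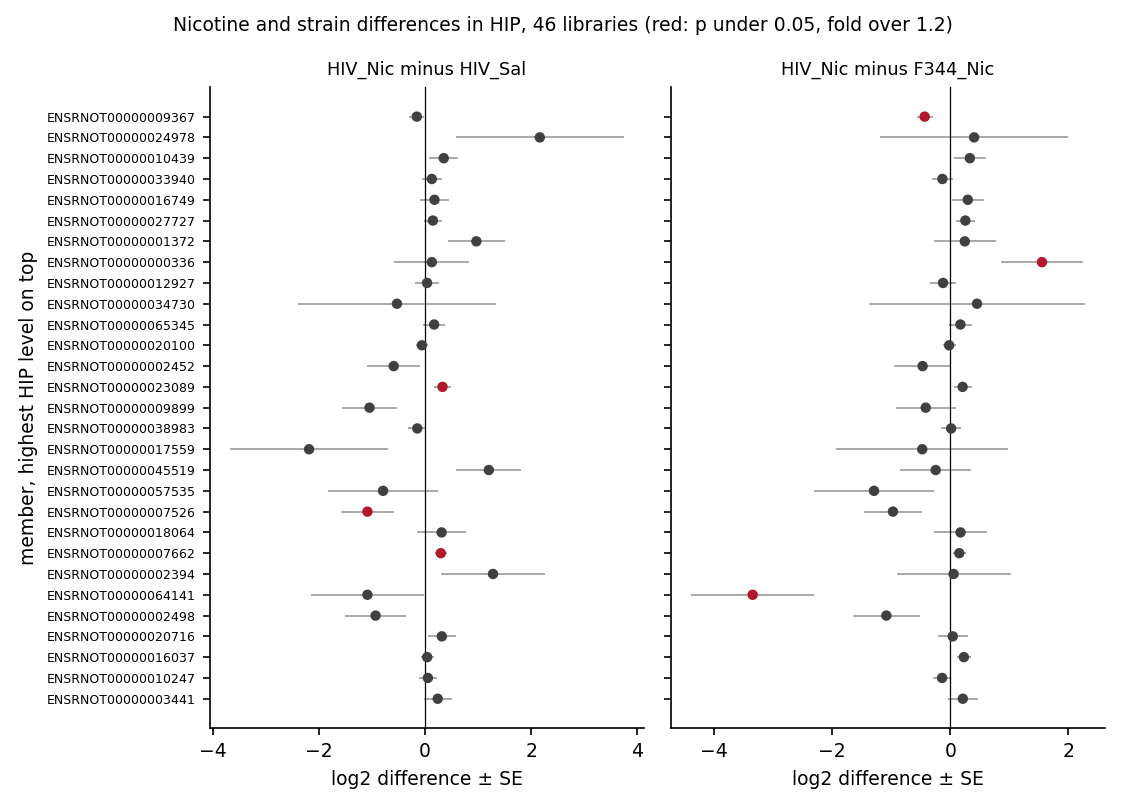
Log2 differences with their standard errors for the members that entered the 2 HIP comparisons without F344_Sal rats, from the fit without the 4 libraries (46 HIP libraries), ordered by HIP level. Red points mark members past the unadjusted threshold and the fold change of 1.2: there are 3 in each panel, on either side of 0.

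Over the 3 groups that the rule did not use, the highest HIP group mean of the widely detected members was a median of 1.31 times the lowest with all libraries and 1.22 times without the 4. Without the 4 it was at most 1.5 times the lowest in 24 of the 32 members (75%) and more than 2 times in 5 (15.6%), and with all libraries in 25 and 5. Of the 6483 transcripts with a mean of at least 5 FPKM and 6 or more libraries above 0.01 FPKM in the HIP of F344_Sal rats, these shares were 88.6% and 3.19% without the 4 libraries, with a median of 1.18 times. Among the 32 members, without the 4 libraries, the lowest of the 3 means fell in F344_Nic for 9, HIV_Sal for 14, and HIV_Nic for 9, and the highest for 10, 7, and 15 in the same order. With all libraries these numbers were 7, 17, and 8 for the lowest and 13, 2, and 17 for the highest.

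In the PFC, 26 members entered at least 1 of the 4 comparisons and 2 were called in any of them, against 20.3% of all transcripts tested there. The F344_Sal values of the PFC and the STR also entered the rule. In the 2 comparisons without that group, 1 of 26 members was called, against 16.1% of all tested. This was ENSRNOT00000001372, lower in HIV_Nic than in F344_Nic rats by 2.15 on the log2 scale (SE 0.81, limma adjusted p = 0.15). The library of PFC F344_Sal replicate 1 lay above every other library of its group in 16 of the 32 widely detected members.

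In the STR, 25 members entered and 2 were called in any of the 4 comparisons (15.3% of all tested), or 3 without the 4 libraries (16% of all tested). All of these calls came from the 2 comparisons without F344_Sal rats, where 10.1% and 10.3% of all tested were called. ENSRNOT00000023089 was lower in HIV_Nic than in HIV_Sal rats by 1.25 on the log2 scale (SE 0.43, limma adjusted p = 0.35) and by 0.90 (SE 0.25, adjusted p = 0.15) without the 4. Its STR values were 0.222 to 1.14 FPKM in HIV_Nic and 0.546 to 2.56 FPKM in HIV_Sal rats, with 24.9 FPKM in the library of replicate 6. In group means the 32 widely detected members were lower in the HIV_Nic than in the HIV_Sal group of the STR in 27 cases, but in 14 cases without the 4 libraries. As a description, the median of their group means was 2.48 FPKM in F344_Sal and 2.77 FPKM in HIV_Sal rats with all libraries, and 1.21 and 1.23 FPKM without them, next to 1.10 FPKM in F344_Nic and 1.18 FPKM in HIV_Nic rats.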

How the data were processed

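RNA of 12 rats per group was sequenced in 3 regions. The authors aligned the reads to rat genome Rn4 with TopHat and Bowtie (version 1.04 per the labels) and deposited, for each transcript and library, a packed cell of Cufflinks values. Its FPKM, which is divided by transcript length and mapped fragments, was read from the first record of a cell (0.33% held several). The number of reads is not given in the sources used here, so no counting error could be stated, and coverage per FPKM, a relative depth, ran from 1.64 to 3.56. All 144 sample columns were used (0 left unused).

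Members, lists, and limits were chosen with earlier results of these data known. Log2(FPKM + 0.1) was fitted with limma 3.58.1 in R 4.3.3 with a trended prior over all transcripts, missing values left out, after tests on simulated data. The factors were strain and drug (the methods state strain and sex for their ANOVA). Identifiers were named from the highest levels, the lowest p, and the widest and smallest spreads or departures from the cut-offs, fewer than planned because the tables hold no gene names. ENSRNOT00000003441, ENSRNOT00000010439, ENSRNOT00000023089, ENSRNOT00000045519, and ENSRNOT00000001372 were partly chosen after their values were seen. No sequence could be linked to a member. The labels do not say which libraries of the 3 regions came from 1 rat. Region and table cannot be told apart, since each region has its own tables.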

Additional observations from a re-analysis of the deposited data

How the results depend on the processing

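With 12 counts recomputed under the alternatives, 82 of 111 alternative values stayed within 1.5 times the reported count and 29 did not. Why a count moved was not tested. Without the filter on low values, which let 87 to 89 members enter, 2 members were called for HIV_Nic against HIV_Sal, 11 for F344_Nic against F344_Sal, 4 for HIV_Sal against F344_Sal, 8 in the PFC (6 in the 2 comparisons without F344_Sal), and 14 in the STR (6 in those 2). Of all transcripts, 3.31%, 3.83%, 3.43%, 13.8% (10% in the 2), and 11.3% (7.01%) were called there, in the same order. Removing values of at most 0.01 FPKM and outliers beyond 1.5 interquartile ranges gave 2 for HIV_Nic against HIV_Sal, 2 for HIV_Sal against F344_Sal, 4 for HIV_Nic against F344_Nic, 8 in the PFC (4 without F344_Sal), and 7 in the STR (7 without F344_Sal), where 10%, 10.7%, 11.2%, 33.3% (25%), and 30.4% (20.5%) of all transcripts were called. A pseudocount of 1 gave 1 for HIV_Nic against F344_Nic (4.21% of all transcripts), 4 in the PFC (17.8%; 4 and 14.4% without F344_Sal), and 1 in the STR (12.7%; 1 and 8.18% without F344_Sal), and a mean of at least 1 FPKM gave 1 in the PFC (22%). With sample weights the counts were 2 for F344_Nic against F344_Sal (5.22%), 4 for HIV_Nic against F344_Nic (5.1%), and 2 in the PFC without F344_Sal (14.6%). Fits of only the 24 samples compared gave 0 and 2 for nicotine in HIV-1Tg and F344 rats (4.08% and 5.08%) and 2 in the PFC without F344_Sal (13.6%). Without the libraries of HIV_Nic that lie apart (1 in the HIP and 2 in the PFC), 2 were called in the PFC without F344_Sal (14.1%). Without the 4 libraries against their labels there were 3 for HIV_Nic against HIV_Sal (4.55%) and 1 for HIV_Sal against F344_Sal (4.71%). This alternative and the counts without F344_Sal were chosen after the data were seen. The counts of members higher in the HIP were within 1.5 times under every alternative run, but without the filter they were 22 of 88, 19 of 88, and 21 of 87 members tested in place of 25 of 32, 21 of 31, and 22 of 30. Counts of comparisons with F344_Sal use values that chose the members.

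Whether replicate numbers pair libraries of 1 rat could not be decided from the values, since libraries of 1 rat need not deviate together. Deviations of same-numbered libraries correlated at -0.05 to 0.04 over 72 pairs of HIP groups and at -0.22 to 0.05 over 144 pairs of regions within a group. In 11 of 144 comparisons of a HIP library with another HIP group, the best correlation was with its own number. With the replicate number as a block, which left 24 to 26 members to test, 1, 4, 0, and 2 members were called for HIV_Nic against HIV_Sal, F344_Nic against F344_Sal, HIV_Sal against F344_Sal, and HIV_Nic against F344_Nic (4.52%, 5.46%, 4.44%, and 5.13% of all transcripts). In the PFC 2 were called (20.5%; 1 and 16.3% without F344_Sal), and in the STR 2 (15.4%; 2 and 10.3% without F344_Sal). In F344_Nic, HIV_Sal, and HIV_Nic rats 21 of 26, 17 of 26, and 18 of 25 were higher in the HIP under the block (2.89%, 2.21%, and 3.61% of all transcripts). The depth is unknown, so values near 0 cannot be told from failed estimates.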

Other observations

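The list of hippocampal transcripts depends on how 12 rats are averaged. With the median over the rats in place of the mean, 109 transcripts met the same cut-offs, of which 37 were among the 90 members (41.1% of the 90 and 33.9% of the 109). Only 8 of these 109 were under 120 bases. Above 0.01 FPKM in at least 6 HIP libraries of F344_Sal rats were 96, which a median of at least 5 FPKM requires unless values are missing. Missing values set to 0 gave 91 transcripts with 84 shared, median scaling gave 91 with all 90 shared, and FPKM summed per gene gave 81 genes with 79 shared.

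Leaving the libraries labelled F344_Sal replicate 10 out of the HIP and the STR added 35 transcripts to the list. The highest of them, ENSRNOT00000047975, 2296 bases long, had a HIP mean of 131 FPKM in the other libraries and 0 FPKM in the HIP library of replicate 10, and its STR mean was 27.4 FPKM against 230 FPKM in the STR library of replicate 10. ENSRNOT00000028096 had 100.1 FPKM in the HIP and 19.6 FPKM in the STR without the 2 libraries labelled replicate 10, which held 8.97 and 145 FPKM. Both identifiers were chosen after their values were seen.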
